A study of Nothobranchius furzeri with 68 samples.

Results

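The RNA splicing factor genes of Nothobranchius furzeri, the turquoise killifish, whose natural life is short, are described here in liver and muscle. They were taken by name: a gene was a member when its column in both count tables began with srsf, sf3a, sf3b, prpf, snrp, hnrnp, u2af or lsm followed by a digit. This gave 63 members among 25065 gene columns of the liver table, and the same 63 among 25099 columns of the muscle table. By family they were 7 SR proteins, 9 SF3a and SF3b subunits, 12 PRPF proteins, 10 Sm and other snRNP proteins, 11 hnRNPs, 1 U2AF subunit (u2af2) and 13 LSm proteins. In each model 62 members had enough reads to be tested, and lsm14b, at 0 to 0.323 CPM in liver, did not. CPM is the read count scaled to the size of the library, that size being first multiplied by a TMM scaling factor. A further 11 columns carry only a locus number but have a RefSeq symbol that fits the same names, and they are given separately.

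The study crossed age, genotype, feeding and sex. Fish were young (6.5 weeks) or old (15 weeks), and wild type (WT) or heterozygous (Het) for APRT, the gene of adenine phosphoribosyltransferase, which makes AMP from adenine. The allele carried by the Het fish is not given in the sources used here. They were fully fed or fasted for 24 h. Livers came from fed males, fasted males and fasted females of both ages and genotypes, 41 libraries in 12 groups of 3 or 4 fish. Muscles came from the 27 fasted fish, in 8 groups. Every library holds polyadenylated RNA from a single organ of a single fish, and fish are named below by their number in the labels. Levels below are those of RNA, also where a protein is named. No fed females and no fed muscles are part of the design, so fasting is described in male liver only. Nothing in the labels says how fish were allotted to tanks or days.

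Splicing removes introns from a pre-mRNA in the spliceosome, which is assembled anew on each intron from small nuclear ribonucleoproteins (snRNPs) and many other proteins. Sm proteins form a ring on most spliceosomal snRNAs, and a related ring of LSm proteins sits on U6 snRNA. The SF3a and SF3b complexes are parts of the U2 snRNP, which binds the branch point. U2AF finds the end of the intron, and several PRPF proteins belong to the U4/U6.U5 particle or to the complexes that activate it. SR proteins and hnRNPs bind the pre-mRNA itself and shift the choice of exons. Not every member is a splicing factor: lsm1 belongs to a cytoplasmic ring that acts in mRNA decay, lsm10 and lsm11 to the U7 particle that processes histone pre-mRNA, and lsm14a and lsm14b to cytoplasmic RNA granules. These roles were worked out mainly with human and yeast proteins and are given as background.

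Library totals were 19949104 to 31600126 counts in liver and 24144462 to 31331150 in muscle. The aprt gene was lower in Het than in WT liver averaged over the 6 genotype comparisons, by 0.81 ± 0.09 on the log2 scale (SE; edgeR quasi-likelihood test, adjusted p = 1.65e-06), and in Het muscle by 0.88 ± 0.17 (adjusted p = 0.0378). Het livers held 5.53 to 17.3 CPM of aprt and WT livers 9.07 to 25.7, so single livers overlapped. The tissues matched their labels: 12 hepatocyte marker genes summed to 44240 to 178900 CPM in liver and 146.2 to 2531 in muscle, and 11 skeletal muscle markers to 24.79 to 211.1 in liver and 78280 to 192500 in muscle. Among fed old Het males, fish 14 stood apart from the other 3 in the mean level of the members and in markers of dividing cells. Among fasted old WT males, fish 18 stood apart from the other 2 in several members. Its markers of dividing cells had a mean of 2.8 log2 CPM, against 0.42 in fish 19 and 1.78 in fish 20. Counts that change without these fish are given both ways, and so are some values of single genes. For fits that leave out 1 fish, the share of all genes called is not given, so such counts describe the fit only. In bulk tissue, fewer cells of a type and less RNA per cell cannot be told apart.

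Across the 62 tested members, the mean level was highest in the livers of fed old WT males. It was 4.37, 4.50 and 4.45 log2 CPM in their 3 livers. Fed young WT males stood at 4.00 to 4.06, and fed young Het males at 3.86 to 4.25. Of the fed old Het males, 3 lay between 3.93 and 3.96, and fish 14 reached 4.37. Fasted males of all 4 groups ranged from 3.68 to 4.04, with fish 18 at 4.04 as the highest, and fasted females from 3.66 to 4.16. Within the muscles the same mean ran from 2.92 to 3.26 with no separate group. Liver and muscle values here were scaled separately and are not compared with each other.

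**Figure D1:**
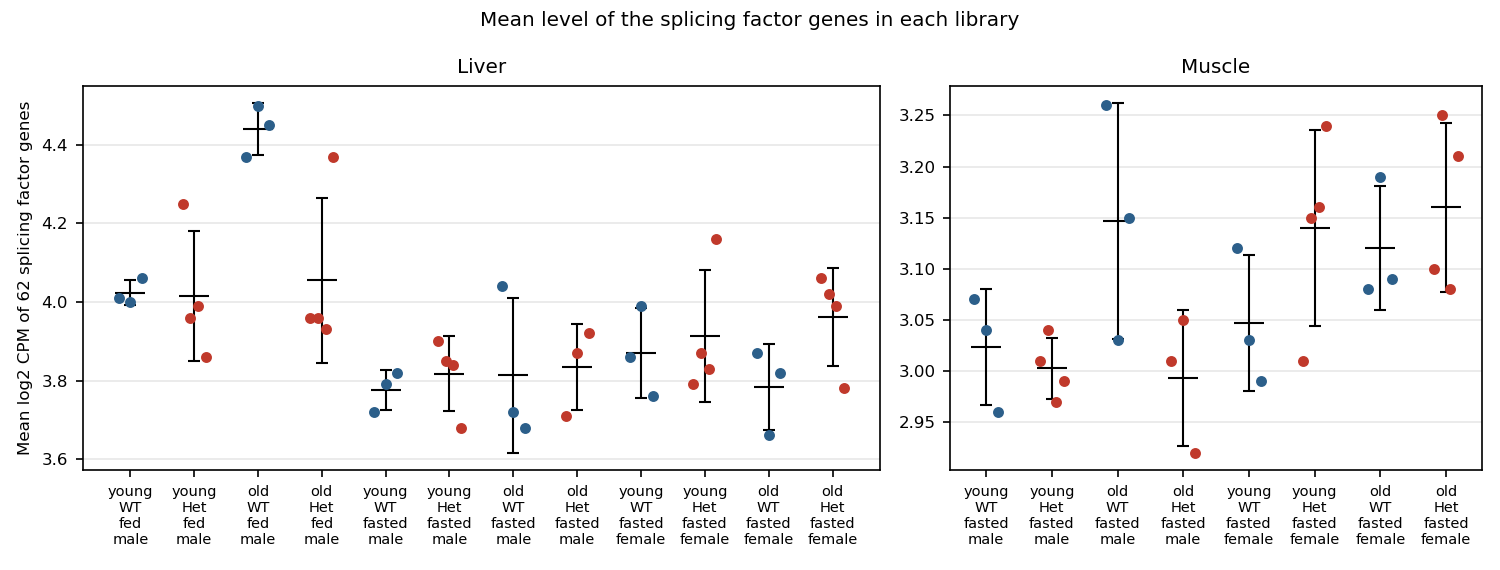
Mean log2 CPM of the 62 tested splicing factor genes (y axis) in every library by group (x axis), for liver on the left and muscle on the right, each on its own axis. Points are fish (blue WT, red Het) and black bars the group mean ± SD; the 3 fed old WT livers lie at 4.37 to 4.50, and among fed old Het livers fish 14 at 4.37 lies above the other 3.

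Markers of dividing cells were high in the same fed old livers. The summed level of 15 such genes (among them mki67, top2a and the mcm genes) was 402.8 to 579.6 CPM in fed old WT males and 37.93 to 46.91 in fed young WT males. In fed old Het males it was 56.87 to 599.7, the highest being fish 14 on the log2 mean of the same genes. Fed young Het males had 49.64 to 115.1, above fed young WT males, although both groups had a mean member level of 4.02 log2 CPM. In fasted males the sum was 29.74 to 129.3. In fasted young Het females, whose highest member level was 4.16, it was only 21.69 to 39.78, and it was at most 53.6 in the other fasted females. No marker of this list was at 0 throughout any group. The part of dividing cells in the results on fasting, age and genotype below was not tested.

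Fasting lowered most of the members that changed in male liver. Averaged over the 4 male responses (young WT, young Het, old WT and old Het), 33 members fell, 11 rose and 18 did not pass the test. A member was called at an adjusted p under 0.05, the p being adjusted over all 17406 genes tested. Of all genes, 47.6% were called, 23.6% lower and 24.0% higher, so the share of members called lower was above the share over all genes and the share called higher was below it. The median log2 change was -0.29 over the members and 0.02 over all genes. As a plain share of all counts, the members made up 0.213% to 0.22% in fed and 0.182% to 0.219% in fasted young WT males. In young Het males this share was 0.169% to 0.215% fed and 0.17% to 0.259% fasted. It was 0.2715% to 0.329% and 0.165% to 0.2425% in old WT males, and 0.172% to 0.245% and 0.191% to 0.244% in old Het males. The number of members called in each direction rests on the TMM scaling.

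The Sm and snRNP genes fell without exception among those called: 8 of 10 were lower, none was higher, and the median was -0.52. The largest fall of any member was that of snrpf, which encodes the Sm protein F of the ring. Its level in the 14 fed males was 4.09 at the lowest, 6.00 at the median and 17.3 CPM at the highest, and in the 13 fasted males 0.701, 1.40 and 7.82. Only fish 18 among the fasted male livers reached the fed range. The fall was 2.15 ± 0.27 on the log2 scale (SE; edgeR adjusted p = 9.76e-08). snrpg and snrpe, which encode other proteins of the ring, fell by 0.91 ± 0.12 and 0.85 ± 0.10 (adjusted p = 1.3e-07 and 3.3e-08).

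Of the 12 LSm genes tested 8 fell, 2 rose and 2 did not pass, with a median of -0.69. lsm3, a subunit shared by the nuclear U6 ring and the cytoplasmic decay ring, held 8.22 at the lowest, 10.4 at the median and 19.2 CPM at the highest in fed males. In fasted males it held 1.83, 4.03 and 9.16, again with fish 18 as the only one inside the fed range. It fell by 1.64 ± 0.18 (SE, log2; edgeR adjusted p = 1.42e-08). The other shared subunits lsm7, lsm2, lsm5, lsm6 and lsm4 fell by 1.21, 1.09, 0.90, 0.81 and 0.56, all with adjusted p of 9.98e-05 or below. lsm1, which marks the cytoplasmic decay ring, held 4.84, 7.35 and 9.34 CPM (lowest, median, highest) in fed males and 2.85, 4.16 and 4.42 in fasted males. The fed and fasted livers did not overlap, and lsm1 fell by 0.87 ± 0.09 (adjusted p = 5.41e-09). lsm8, which takes the place of lsm1 in the nuclear U6 ring, held 7.57, 8.02 and 9.95 CPM in fed and 6.09, 7.81 and 9.84 in fasted males. Its ranges overlapped almost fully, and its change was -0.06 ± 0.09 (adjusted p = 0.619). The difference between lsm1 and lsm8 was not tested. The LSm genes that rose were lsm12, by 0.29 ± 0.10, and lsm14a, by 0.25 ± 0.06 (adjusted p = 0.0147 and 0.00042), and neither is a ring subunit of the U6 particle.

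The genes of U2 snRNP subunits went both ways. Of the 9 SF3a and SF3b genes, 5 were lower and 2 higher, with a median of -0.29. sf3b3, a large scaffold subunit of SF3b, fell by 0.84 ± 0.10 and sf3a2 by 0.83 ± 0.12 (edgeR adjusted p = 3.08e-08 and 4.77e-07). sf3b1, the SF3b subunit that cradles the branch point, moved the opposite way. It held 93.1, 107.5 and 145 CPM (lowest, median, highest) in fed males and 109.5, 153.0 and 174 in fasted males. These ranges overlap, and the rise was 0.44 ± 0.08 (adjusted p = 1.64e-05). sf3a1 rose by 0.16 ± 0.06 (adjusted p = 0.0314), and lost the call in 8 of the 27 fits that left out 1 liver. u2af2, the large U2AF subunit, was lower by 0.28 (adjusted p = 0.000609).

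The 12 PRPF genes had a median of 0.03, with 3 higher and 4 lower. prpf3, a protein of the U4/U6 particle, had the largest rise of any member. Its level was 15.4, 18.7 and 22.4 CPM in fed males and 17.1, 30.2 and 36.8 in fasted males (lowest, median, highest). Fish 18, at 17.1, was the only fasted liver inside the fed range. The rise was 0.61 ± 0.07 (edgeR adjusted p = 3.31e-08). prpf18, which acts in the step that joins the exons, rose by 0.44 ± 0.08 (adjusted p = 3.43e-05). prpf19, the ubiquitin ligase after which the activating complex is named, held 11.6, 22.8 and 39.5 CPM in fed and 8.22, 11.7 and 16.8 in fasted males, and fell by 0.92 ± 0.13 (adjusted p = 7.58e-07).

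Among the proteins that bind pre-mRNA, 4 of 7 SR genes were lower and 1 higher (median -0.38), and 3 of 11 hnRNP genes were lower and 3 higher (median -0.15). srsf3, an SR protein also involved in mRNA export, held 38.6, 45.4 and 66.9 CPM in fed males and 20.2, 29.5 and 36.2 in fasted males, with no overlap, and fell by 0.77. srsf3 and lsm1 were the only 2 called members whose fed and fasted male livers did not overlap. The share of all genes without such overlap was not counted. The SR gene that rose, srsf5, did so by 0.19 ± 0.08 (adjusted p = 0.0444) and lost the call in 17 of 27 fits without 1 liver. The hnRNP genes that rose were hnrnpul1 by 0.32, hnrnpul2 by 0.23 and hnrnpu by 0.21, related proteins that bind RNA and chromatin; hnrnpul2 lost the call in 11 of those fits. The hnRNP genes that fell were hnrnpk by 0.59, hnrnph1 by 0.52 and hnrnpr by 0.37. Fasting also lowered all 15 markers of dividing cells (median log2 change -1.82). Of the other marker lists in this comparison, 2 hepatocyte genes of 12 were higher and 2 lower, 1 leukocyte gene of 13 higher and 1 lower, 2 erythroid genes of 8 higher and 1 lower, 2 endothelial and stromal genes of 9 higher and 1 lower, and no skeletal muscle gene of 11 or exocrine pancreas gene of 4 was called.

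**Figure D2:**
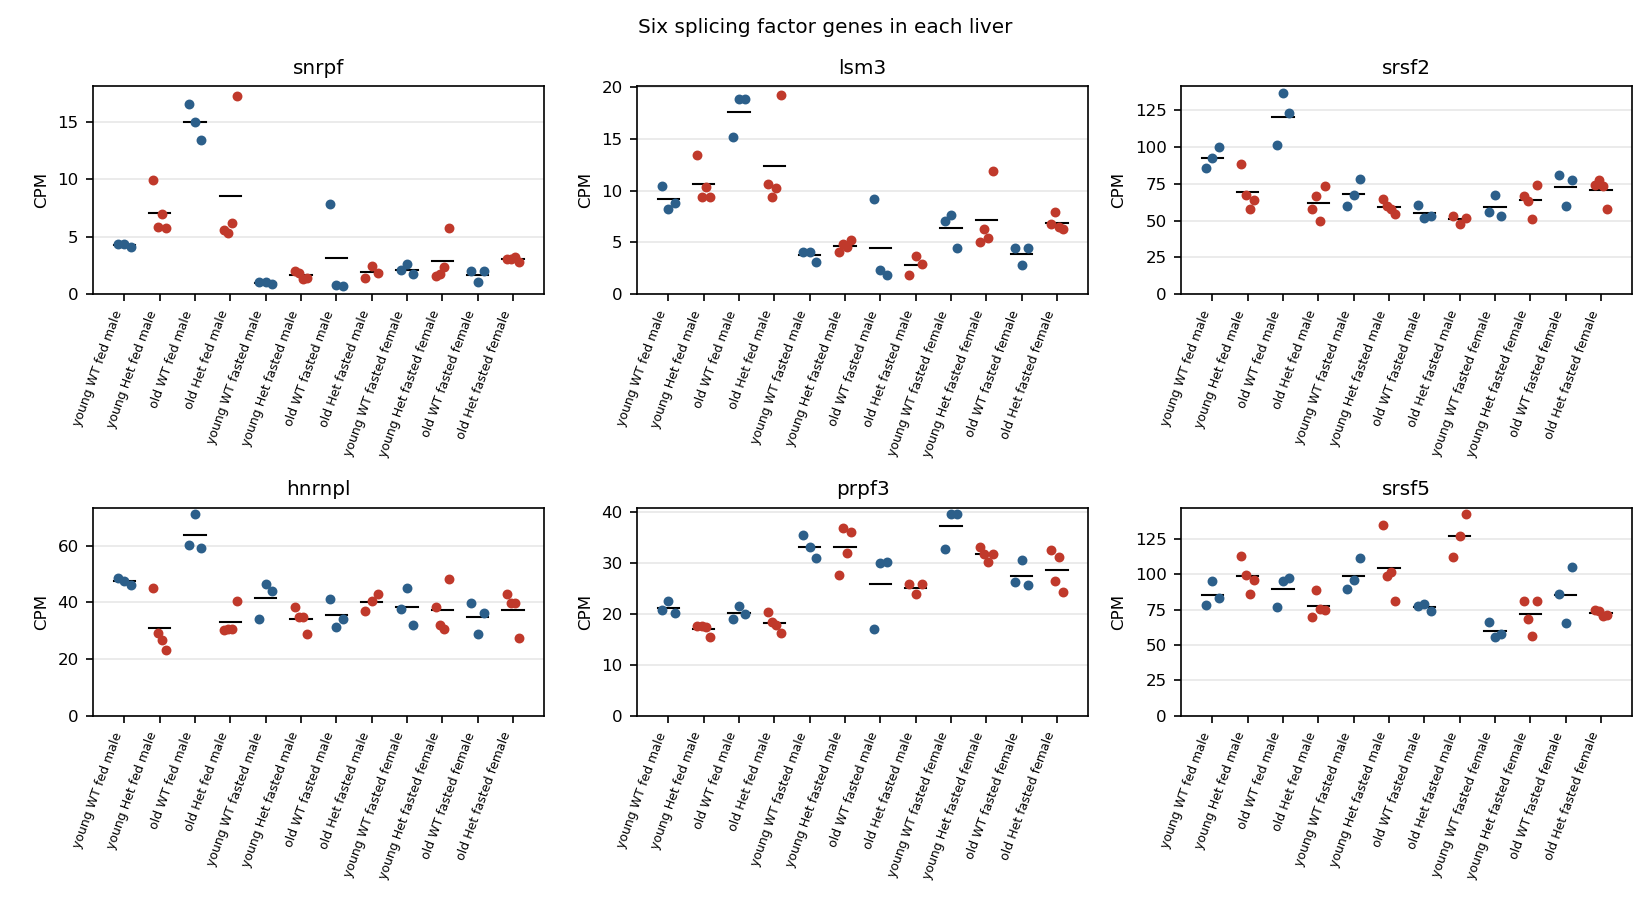
Level in CPM (y axes, from 0) of snrpf, lsm3, srsf2, hnrnpl, prpf3 and srsf5 in each of the 41 livers by group (x axes). Points are fish (blue WT, red Het) and lines the group means; snrpf and lsm3 are low in nearly all fasted males, with fish 18 at 7.82 and 9.16, prpf3 is higher in fasted livers, and srsf2 and hnrnpl are highest in fed old WT males.

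Some members were called in every response. Called lower in all 4 were 4 members: snrpf, lsm1, lsm3 and lsm7. A further 8 were called lower in 3 of them (lsm2, lsm4, lsm6, prpf19, sf3b3, snrpe, snrpg and srsf3), and prpf3 and sf3b1 were called higher in 3. snrpf fell by 2.12, 2.10, 2.24 and 2.16 on the log2 scale in young WT, young Het, old WT and old Het males. Each of these comparisons had fed and fasted livers that did not overlap for snrpf. No member was called higher in all 4. The share of all genes called in 3 or 4 responses was not counted.

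In young WT males 2 members rose and 8 fell, with 10.7% of all genes called, 6.51% higher and 4.14% lower, and a median of -0.20 over the members. snrpf held 4.38, 4.37 and 4.09 CPM in the 3 fed livers and 1.02, 1.03 and 0.877 in the fasted ones (edgeR adjusted p = 0.0145). prpf18 rose by 0.80 ± 0.17 and prpf3 by 0.65 ± 0.15 (adjusted p = 0.0026 and 0.00492). lsm2 fell by 1.27 ± 0.27, lsm3 by 1.29 ± 0.38 and prpf19 by 0.99 ± 0.27 (adjusted p = 0.00265, 0.026 and 0.0167). The count of 10 was 5 without fasted fish 32, 3 without fasted fish 33, 5 without fed fish 45 and 4 without fed fish 47.

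In young Het males 4 members rose and 13 fell, with 13.5% of all genes called, 6.39% higher and 7.12% lower, and a median of -0.19. prpf3 held 17.7, 17.5, 17.3 and 15.4 CPM in the fed livers and 27.6, 36.8, 31.9 and 36.0 in the fasted ones, and rose by 0.96 ± 0.13 (edgeR adjusted p = 1.87e-05). sf3b1 rose by 0.53 ± 0.14, hnrnpul1 by 0.51 ± 0.17 and lsm14a by 0.32 ± 0.10 (adjusted p = 0.01, 0.0466 and 0.0345). srsf3 fell by 0.92 ± 0.20, sf3b3 by 0.89 ± 0.18 and lsm3 by 1.18 ± 0.33 (adjusted p = 0.00241, 0.00137 and 0.0149). The count of 17 was 8 without fed fish 52, which had the highest mean level of its group, and 11 without fasted fish 38 or 40.

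In old WT males 37 members were lower and 1, sf3b1, was higher. Of all genes 28.9% were called, 15.6% lower and 13.3% higher, and the median was -0.65 over the members and 0.08 over all genes. The fall took in 5 of 7 SR genes, 6 of 9 SF3 genes, 5 of 12 PRPF genes, 7 of 10 Sm and snRNP genes, 5 of 11 hnRNP genes and 8 of 12 LSm genes. snrpf held 16.5, 15.0 and 13.4 CPM in the fed livers and 7.82, 0.839 and 0.701 in the fasted ones, fish 18 being the highest (edgeR adjusted p = 0.00294). prpf19 held 33.0, 39.5 and 37.5 CPM fed and 16.8, 9.50 and 9.04 fasted, a fall of 1.63 ± 0.28, and lsm2 fell by 1.63 ± 0.27 (adjusted p = 8.79e-05 and 7.74e-05). lsm3 fell by 1.97 ± 0.38 (adjusted p = 0.000348). sf3b1 held 93.1, 100.8 and 105 CPM fed and 109.5, 169 and 161 fasted, a rise of 0.55 ± 0.16 (adjusted p = 0.00944). The count was 40 without fish 18 and 29 without fish 19 or fish 20. When only these 6 livers were fitted, 11 members were called, all lower, and 5.95% of all genes. The same kind of fit called 8 lower in young WT, 14 in young Het and 15 in old Het males. Of all genes it called 13.4%, 20.3% and 32% there, so the order of the groups by count turned with the fit. In these fits the median over the members was -0.64 in old WT males and -0.19, -0.22 and -0.09 in the others. Of the dividing-cell markers 14 of 15 were lower here, and 7 of 11 skeletal muscle markers, whose sum in the fed livers was 37.3, 40.0 and 211.1 CPM.

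In old Het males 8 members rose and 20 fell, with 31.8% of all genes called, 16.3% lower and 15.4% higher, and a median of -0.11. srsf5 held 69.8, 89.2, 75.4 and 75.0 CPM fed and 112, 127 and 143 fasted, a rise of 0.72 ± 0.16 (edgeR adjusted p = 0.00077). Fed and fasted livers were fully apart. prpf18 and prpf3 rose by 0.51 ± 0.16 and 0.47 ± 0.14 (adjusted p = 0.0137 and 0.00969). lsm3, lsm7 and snrpg fell by 2.13 ± 0.38, 1.47 ± 0.29 and 1.30 ± 0.23 (adjusted p = 9.25e-05, 0.000289 and 0.000115). Without fed fish 14 the count was 19, and the fall of snrpf was 1.56. Of the dividing-cell markers 13 of 15 were lower.

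**Figure D3:**
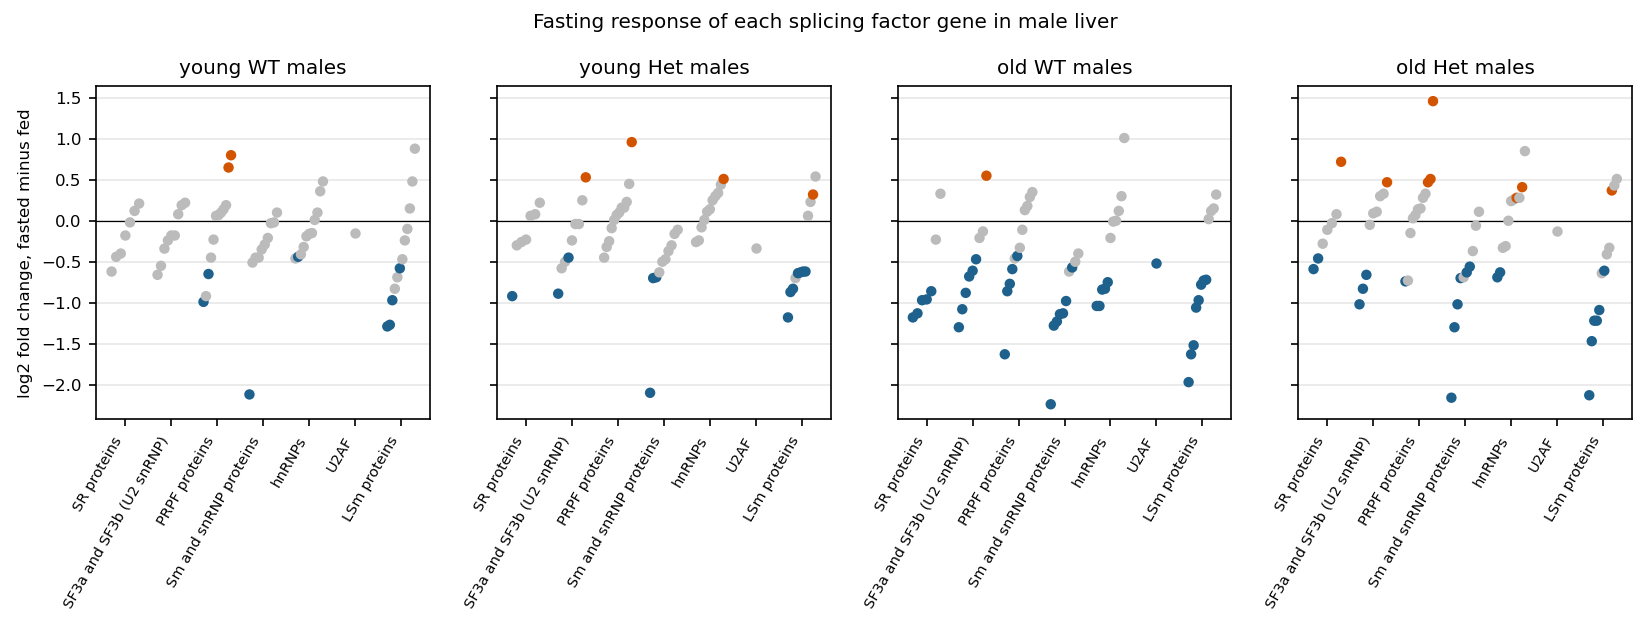
Log2 fold change of each member, fasted minus fed (y axis), by protein family (x axis) in the 4 groups of male livers. Each point is a gene (orange called higher, blue called lower, grey not called); in old WT males 37 points are blue and 1 orange, in old Het males 20 blue and 8 orange.

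The difference between responses was tested directly. Between old and young WT males no member differed by edgeR (0 of 62) or by DESeq2 (0). By edgeR 0.0172% of all genes were called (0.00575% higher, 0.0115% lower). At an unadjusted edgeR p under 0.05 were 14 members and 1826 of 17406 genes. The median was -0.38 over the members and 0.02 over all genes. For 54 of 62 members the estimate was more negative in old fish, a count not made over all genes. The members with the smallest adjusted p were sf3b3 at -0.95 ± 0.29 and snrpa1 at -0.97 ± 0.31 (adjusted p = 0.229 and 0.241). Between Het and WT young males no member differed by edgeR and 1 by DESeq2, with 1.53% of all genes called by edgeR (0.506% higher, 1.03% lower). At an unadjusted edgeR p under 0.05 were 3 members and 1923 of 17406 genes. There hnrnpr was at 0.56 ± 0.17 and prpf18 at -0.64 ± 0.23 (adjusted p = 0.105 and 0.178). Without fed fish 52, 2 members passed.

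Between Het and WT old males 4 members differed, all with a response that was more positive in Het fish, and 1.25% of all genes were called, 0.569% higher and 0.684% lower. srsf6 differed by 1.26 ± 0.33, hnrnpl by 1.12 ± 0.28, srsf5 by 0.94 ± 0.23 and sf3a3 by 0.80 ± 0.20 (edgeR adjusted p = 0.048, 0.0403, 0.0391 and 0.0397). srsf5 and srsf6 are SR proteins, hnrnpl an hnRNP that binds CA-rich RNA, and sf3a3 a subunit of SF3a. hnrnpl held 60.4, 71.1 and 59.4 CPM in fed WT and 41.1, 31.5 and 34.1 in fasted WT livers, against 30.1, 30.6, 30.7 and 40.5 in fed Het and 37.0, 40.4 and 42.9 in fasted Het livers. The fed WT livers were the high ones, and the Het livers overlapped between feeding states. srsf5 differed in the other way: WT livers held 76.7, 95.6 and 97.6 CPM fed and 77.7, 78.8 and 74.4 fasted, and the fasted Het livers were the high ones. The count of 4 was 17 without fish 18, 9 without fish 14 and 1 without fed Het fish 12. It was 0 without any one of fasted Het fish 25, 26 or 27, fed Het fish 11 or 13, fasted WT fish 19 or 20, or fed WT fish 5 or 6, and 0 with no filter on low counts.

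In fed WT males 13 of 62 members were higher in old than in young livers and 1 was lower, with 9.43% of all genes called, 6.13% higher and 3.30% lower. The median was 0.41 over the members and 0.03 over all genes. The fall of old WT males on fasting, this comparison, and the genotype comparison in fed old males all use the same 3 fed old WT livers. The Sm and snRNP genes snrpf, snrpg, snrpd2, snrpa1 and snrpe made up 5 of the 13, and the LSm genes lsm1, lsm4 and lsm7 another 3. The others were hnrnpk, hnrnph1, sf3a2, sf3b3 and u2af2. snrpf held 4.38, 4.37 and 4.09 CPM in young and 16.5, 15.0 and 13.4 in old livers, a rise of 1.81 ± 0.55 (edgeR adjusted p = 0.0327). hnrnpk, an hnRNP that binds C-rich sequence, held 32.5, 31.5 and 35.3 CPM in young and 66.0, 76.6 and 76.6 in old livers, a rise of 1.14 ± 0.29 (adjusted p = 0.0103). snrpg rose by 1.06 ± 0.24 and snrpd2 by 1.01 ± 0.30 (adjusted p = 0.00528 and 0.0302). In these genes young and old livers were fully apart. sf3b1 held 134, 140.5 and 145 CPM in young and 93.1, 100.8 and 105 in old livers, and fell by 0.49 ± 0.16 (adjusted p = 0.0484). The count of 14 was 8, 5 and 9 without old fish 4, 5 and 6 and 7, 4 and 7 without young fish 45, 46 and 47. It was 33 when only these 6 livers were fitted, with 20.7% of all genes called. All 15 dividing-cell markers were higher in the old livers, with a median of 3.46.

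In the other liver groups age changed few members. In fasted WT males no member was called by edgeR and 1 by DESeq2, with 0.500% of all genes called by edgeR (0.339% higher, 0.161% lower). At an unadjusted edgeR p under 0.05 were 6 members and 3292 of 17406 genes. There snrpf was at 1.70 ± 0.57 (adjusted p = 0.104) and prpf3 at -0.37 ± 0.15 (adjusted p = 0.171). Without fish 18 the value of snrpf was -0.34, and without fish 19 or fish 20 the count was 1 or 2. In fed Het males edgeR called no member and 0% of all genes, and DESeq2 called 0 members. At an unadjusted edgeR p under 0.05 were 3 members and 1633 of 17406 genes. srsf5 was at -0.35 ± 0.15 and sf3a3 at -0.33 ± 0.12 (adjusted p = 0.424 and 0.384). Whether the age difference itself differed between WT and Het fed males was not tested. In fasted Het males hnrnpa3 was the 1 member called, with 8.31% of all genes (3.90% higher, 4.41% lower). This hnRNP held 16.0, 24.0, 22.1 and 28.5 CPM in young and 15.5, 11.7 and 13.3 in old livers, and fell by 0.75 ± 0.21 (adjusted p = 0.0234). That count was 0 without old fish 26 or 27 or young fish 39 or 41, 3 without young fish 38, and 0 when only these livers were fitted. In fasted females sf3a1 was the 1 member called, with 5.95% of all genes called (2.91% higher, 3.04% lower), a rise of 0.32 ± 0.09 (adjusted p = 0.0273). That count was 0 without old fish 17, 21 or 23 or young fish 28 or 30, 2 without old fish 22 or 24, 5 without old fish 16 or young fish 34, and 0 when only the females were fitted.

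In fed old males 9 of 62 members were lower in Het than in WT livers, none was higher and 53 did not pass, with 7.33% of all genes called, 3.45% higher and 3.88% lower, and a median of -0.35 over the members against 0.00 over all genes. The 9 were prpf38a, prpf19, srsf2, hnrnpl, hnrnph1, srsf6, sf3b3, hnrnpr and sf3a3. No Sm, snRNP or LSm gene passed, although all 10 Sm and snRNP genes had estimates below 0 (median -0.41), as did 10 of 12 LSm genes (median -0.25). The closest were lsm2 at -0.77 ± 0.25 and snrpd3 at -0.76 ± 0.25 (edgeR adjusted p = 0.0501 and 0.0569), and no difference between families was tested. prpf38a, a protein needed for spliceosome activation, held 5.35, 7.30 and 5.65 CPM in WT and 2.88, 3.19, 2.87 and 3.11 in Het livers, and fell by 1.02 ± 0.19 (edgeR adjusted p = 0.00204). srsf2, an SR protein that binds exonic enhancers, held 101.5, 137 and 123 CPM in WT and 58.0, 67.0, 49.7 and 73.5 in Het livers, and fell by 0.96 ± 0.15 (adjusted p = 0.00069). hnrnpl and prpf19 fell by 0.95 ± 0.19 and 1.0 ± 0.25 (adjusted p = 0.0034 and 0.0141). For all 9 genes WT and Het livers were fully apart, and the share of all genes fully apart was not counted. The count was 24 without Het fish 14, 5 without Het fish 12 and 1 without WT fish 5, and the shares of all genes in these fits are not given here. Of the dividing-cell markers 3 of 15 were lower, and of the skeletal muscle markers 7 of 11.

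In fed young males 3 members were lower in Het livers and none higher, with 5.80% of all genes called, 2.78% higher and 3.02% lower. They were prpf38a at -0.67 ± 0.19, hnrnpl at -0.61 ± 0.19 and hnrnpr at -0.46 ± 0.12 (edgeR adjusted p = 0.0323, 0.0476 and 0.0179). hnrnpl held 48.8, 47.7 and 46.1 CPM in WT and 45.2, 29.1, 26.6 and 23.1 in Het livers, fish 52 being the highest Het liver. These 3 are also among the 9 lower in fed old Het males. Of the dividing-cell markers 3 of 15 were higher in Het livers. The count was 5 without fish 52, 1 without fish 53, and 0 without fish 54 or 55 or any one WT fish (45, 46 or 47). It was 7 when only these livers were fitted, 2 higher and 5 lower, with 14.6% of all genes called. Of the 3 members named here, 1 kept its call in that fit.

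In fasted livers the genotype moved few members. By edgeR no member was called in fasted young males, where 1 member and 858 of 17406 genes had an unadjusted p under 0.05. DESeq2 called 0 members there, and edgeR called 0% of all genes. In young females 3 members and 1374 of 17406 genes had such a p, DESeq2 called 0 members and edgeR called 0% of all genes. In old females edgeR called 0 members and DESeq2 1, and 11 members and 2875 of 17406 genes had such a p. There edgeR called 2.03% of all genes (1.03% higher, 0.994% lower). In old females lsm7 was at 1.08 ± 0.30 and prpf19 at 0.80 ± 0.26 (adjusted p = 0.0512 and 0.0992), and 1 member passed without WT fish 16. In young females srsf3 was at 0.70 ± 0.22 and prpf8 at -0.49 ± 0.20 (adjusted p = 0.374 and 0.507). In young males prpf38b was at -0.33 ± 0.15 and prpf18 at -0.30 ± 0.16 (adjusted p = 0.926 and 1). In old males srsf5 was higher in Het livers by 0.73 ± 0.17 (adjusted p = 0.0367), the only member called, with 0.758% of all genes (0.356% higher, 0.402% lower). That call was lost without any one of the 6 livers and when only these 6 were fitted. Averaged over all 6 genotype comparisons, srsf2 alone was called, lower by 0.27 ± 0.06 (adjusted p = 0.0204), with 1.76% of all genes called (0.781% higher, 0.982% lower). hnrnpul2 was at 0.27 ± 0.08 (adjusted p = 0.0585). The count was 0 without fed old WT fish 5. It was 2 without fish 6, 14, 22, 26, 30, 33, 34 or 39, 3 without fish 21, 31 or 37, 4 without fish 19 or 52 and 5 without fish 16.

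Among fasted young fish members differed between the sexes in both directions. In females 12 members were higher and 9 lower than in males, with 26.4% of all genes called, 13.9% higher and 12.5% lower, and a median of 0.05 over the members. The shares of members called were not far above those of all genes. As a plain share of all counts, the members made up 0.0921% to 0.145% in these females and 0.17% to 0.259% in these males. The number in each direction therefore rests on the TMM scaling. Of 12 LSm genes tested 6 were higher and 1 lower (median 0.50), and of 10 Sm and snRNP genes 2, snrpg and snrpe, were higher. Of 7 SR genes 4 were lower and none higher (median -0.37), and no difference between families was tested. lsm2 held 3.75 at the lowest, 4.38 at the median and 8.29 CPM at the highest in 7 females and 2.01, 2.65 and 3.52 in 7 males, a difference of 0.99 ± 0.18 (edgeR adjusted p = 0.000118). lsm1 held 5.47, 6.36 and 8.70 CPM in females and 3.01, 4.18 and 4.42 in males (0.72 ± 0.13, adjusted p = 8.39e-05). snrpg and lsm3 were higher by 0.61 ± 0.16 and 0.69 ± 0.25 (adjusted p = 0.00504 and 0.041). srsf5 held 55.6, 66.0 and 81.18 CPM in females and 81.24, 98.8 and 135 in males, and was lower by 0.63 ± 0.11 (adjusted p = 7.6e-05). For lsm2, lsm1 and snrpg the sexes did not overlap, and for srsf5 they were apart only narrowly. srsf3, sf3b4 and srsf10 were lower by 0.58 ± 0.15, 0.55 ± 0.13 and 0.47 ± 0.14 (adjusted p = 0.00428, 0.0016 and 0.0108). Of the hepatocyte markers 7 of 12 were lower and 1 was higher in females.

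In old fasted fish 7 members were higher in females and 5 lower, with 32.6% of all genes called, 14.3% higher and 18.3% lower. Here too the plain share of all counts was lower in females, 0.083% to 0.151% against 0.165% to 0.244% in males. lsm1, lsm2, srsf5, srsf3, hnrnpr, sf3a2, sf3b3 and lsm14a were called in the same direction as in young fish. lsm1 was higher by 0.61 ± 0.13 and lsm2 by 0.49 ± 0.19, and srsf3 was lower by 0.59 ± 0.16 and srsf5 by 0.33 ± 0.12 (edgeR adjusted p = 0.000731, 0.045, 0.00417 and 0.0276). srsf3 held 16.2, 19.9 and 27.5 CPM in 7 females and 27.8, 31.5 and 36.2 in 6 males, with no overlap. srsf2 and srsf11 were higher by 0.44 ± 0.11 and 0.48 ± 0.15, and sf3a3 and lsm14a lower by 0.25 ± 0.10 and 0.22 ± 0.08 (adjusted p = 0.0043, 0.0168, 0.0476 and 0.0381). hnrnpll, an hnRNP known from lymphocytes of mouse and human, was at -1.84 (adjusted p = 0.0482) at a level of 0.213 to 1.23 CPM in females and 0.306 to 4.92 in males. Of the 13 leukocyte markers tested 11 were lower in old females, with a median of -3.00. The sum of the 14 leukocyte markers found was 58.55, 74.81 and 583.2 CPM (lowest, median, highest) in fasted old Het males. It was 36.16, 189.6 and 737.9 in fasted old WT males. In old females it was 59.13, 105.3 and 142 (Het) and 93.84, 113.7 and 178 (WT). The part of leukocytes in the level of hnrnpll was not tested. The count of 12 was 22 without fish 18, 6 without fish 15, 22 or 26 and 7 without fish 17, 19 or 20. It was 7 with no filter on low counts and 3 when only these livers were fitted, with 22.1% and 19.7% of all genes called. The difference between the ages in the sex effect was not tested.

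**Figure D4:**
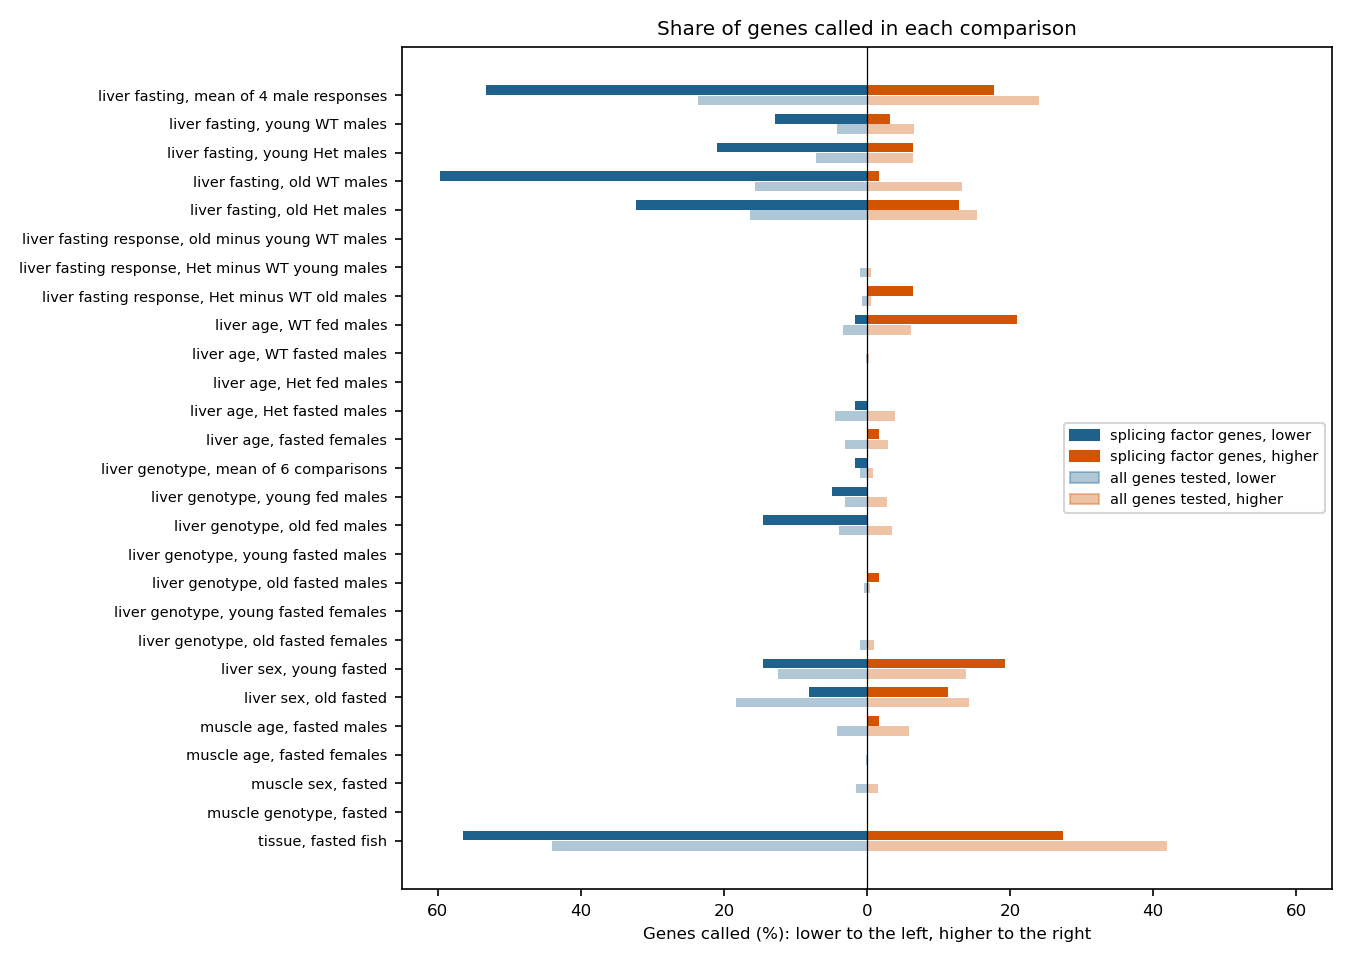
Percentage of genes called in each of the 27 comparisons (x axis; lower to the left in blue, higher to the right in orange), with the 62 splicing factor genes in the upper, full-coloured bar and all genes tested in the lower, pale bar. In fed versus fasted old WT males the members' bar reaches furthest to the lower side, against 15.6% of all genes, and in muscle the members' bars are at or near 0.

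Within muscle hardly any member changed. In fasted males snrpb2, which encodes a U2 snRNP protein, was higher in old fish, the 1 member called, with 10.1% of all genes (5.90% higher, 4.24% lower). It held 1.89, 1.34 and 1.19 CPM in young WT, 1.46, 1.52, 1.06 and 1.39 in young Het, 4.49, 2.10 and 2.93 in old WT and 2.20, 1.5 and 1.49 in old Het muscles. The rise was 0.72 ± 0.19 (edgeR adjusted p = 0.0183), with the highest value in old WT fish 18. sf3a1 was at 0.40 ± 0.13 (adjusted p = 0.0518). The count was 0 without fish 18 or 32, 2 without fish 25 or 38, 3 without fish 33, 4 without fish 20, and 0 when only the males were fitted. Of the leukocyte markers 8 of 14 were higher in the old male muscles, as were 5 of 12 hepatocyte markers, and their part in the result was not tested. In females age called no member by edgeR and 0 by DESeq2, with 0.311% of all genes called by edgeR (0.140% higher, 0.171% lower). At an unadjusted edgeR p under 0.05 were 2 members and 1818 of 16380 genes. There snrpf was at 0.56 ± 0.24 and lsm6 at 0.25 ± 0.12 (adjusted p = 0.377 and 0.426). Sex called no member by edgeR and 2 by DESeq2, with 3.20% of all genes called by edgeR, 1.60% in each direction. At an unadjusted edgeR p under 0.05 were 12 members and 3546 of 16380 genes. By sex srsf10 was at 0.27 ± 0.08 and srsf2 at 0.23 ± 0.07 (edgeR adjusted p = 0.0753 and 0.0776). The sex count was 3 without fish 20, 2 without fish 25 and 1 without fish 21, 23 or 39. Genotype called no member by edgeR and 0 by DESeq2, with 0.0794% of all genes called by edgeR (0.0427% higher, 0.0366% lower). At an unadjusted edgeR p under 0.05 were 4 members and 1819 of 16380 genes. By genotype prpf8, the core protein of the U5 snRNP, was at -0.21 ± 0.08 and sf3b1 at 0.12 ± 0.06 (edgeR adjusted p = 0.348 and 0.409).

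Between tissues of the same 27 fasted fish, 35 members were lower in muscle and 17 higher, with 86.0% of all genes called, 44.0% lower and 42.0% higher. The median was -0.26 over the members and -0.05 over all genes. As a plain share of all counts, the members made up 0.083% to 0.151% in livers and 0.102% to 0.117% in muscles of old Het females. In old Het male fish 25 this share was 0.191% in liver and 0.0873% in muscle, and it is not given here for muscles of other fish. The number of members in each direction between tissues rests on the joint TMM scaling. The kit and the sequencer changed with the tissue (KAPA mRNA HyperPrep for liver, KAPA Stranded mRNA-Seq for muscle), and the effects of tissue and of preparation cannot be told apart. SR genes were lower in muscle in 6 of 7 cases and higher in none (median -0.61), and Sm and snRNP genes lower in 7 and higher in 2 of 10 (median -0.50). hnRNP genes were balanced, 5 higher and 5 lower of 11. For this comparison livers and muscles were scaled together, so CPM of the same livers differ from those given above.

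srsf6 held 31.5 at the lowest, 42.0 at the median and 69.4 CPM at the highest in liver and 13.3, 16.3 and 26.6 in muscle, a difference of -1.43 ± 0.07 (edgeR adjusted p = 3.39e-23). srsf5 held 43.1, 64.9 and 116 CPM in liver and 24.1, 29.1 and 35.1 in muscle, a difference of -1.21 ± 0.06 (adjusted p = 6.46e-24). In both SR genes no muscle reached the liver range. lsm3, snrpb2, hnrnpk and lsm1 were lower in muscle by 1.40, 1.17, 1.12 and 1.12, and sf3b3 and sf3a3 by 1.11 and 1.01. prpf38a went the other way, with 2.18, 2.82 and 3.75 CPM in liver and 4.86, 7.77 and 9.95 in muscle, a difference of 1.44 ± 0.07 (adjusted p = 1.58e-23). snrpc, a protein of the U1 snRNP that helps it bind the start of an intron, held 4.84, 6.92 and 9.91 CPM in liver and 11.0, 14.1 and 18.8 in muscle (1.0 ± 0.07, adjusted p = 4.95e-18). For prpf38a and snrpc no liver reached the muscle range. hnrnpa3, prpf31, prpf6, sf3b1 and lsm6 were higher in muscle by 0.66, 0.66, 0.60, 0.57 and 0.53. Of 27 fits that each left out 1 fish, every one called 49 to 53 members.

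**Figure D5:**
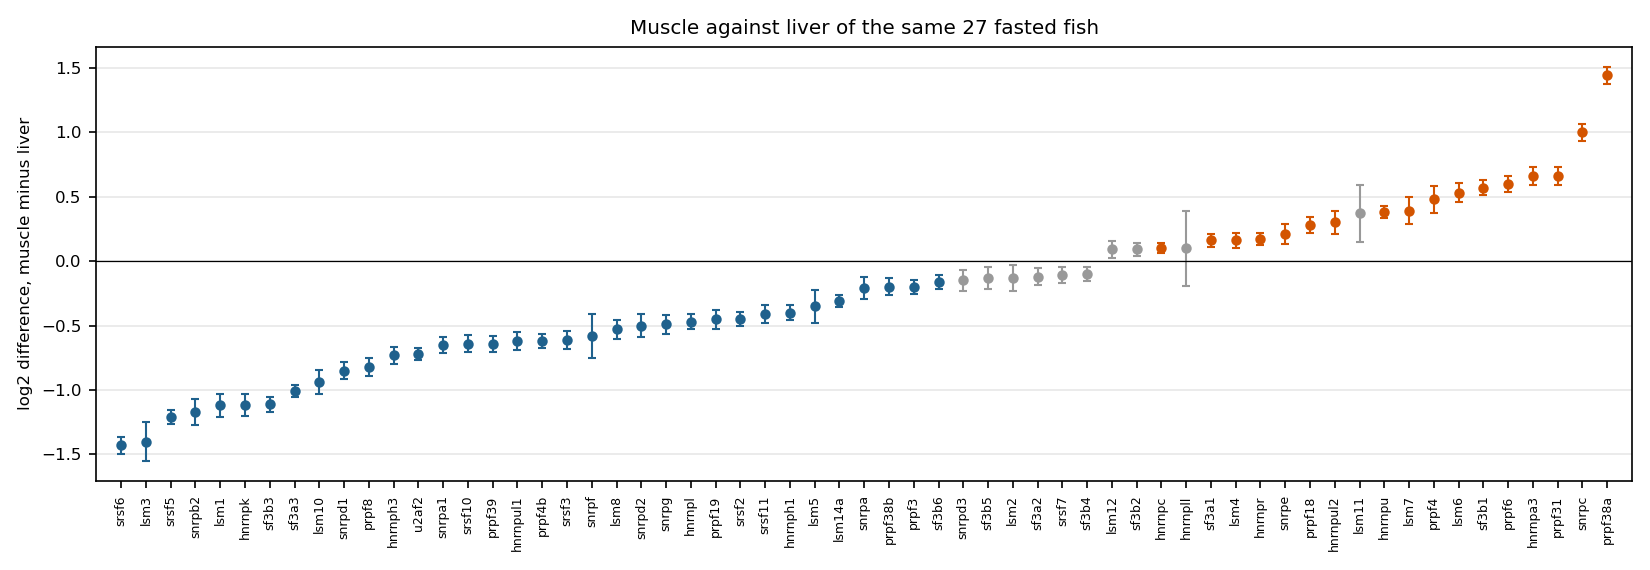
Log2 difference of the named members tested, muscle minus liver (y axis), ordered by size (x axis), with SE bars, from the 27 fasted fish. Orange genes are called higher in muscle, blue lower and grey not called; prpf38a at 1.44 is the highest and srsf6 at -1.43 the lowest.

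Other genes of the pathway were counted in the averaged fasting response and between tissues, from lists drawn up from general knowledge of the spliceosome. Of 25 snRNP proteins named outside the rule, 14 fell on fasting and 2 rose (median -0.33), with usp39 at -1.22 ± 0.18 and txnl4b at -1.15 ± 0.16 as the largest falls (edgeR adjusted p = 1.84e-06 and 3.84e-07). Of all genes 24.0% rose and 23.6% fell in this comparison, and no difference between lists was tested. Among 11 spliceosomal helicases 3 rose and 2 fell (median 0.15), among 19 proteins of the Prp19 complex and catalytic steps 7 rose and 5 fell (median 0.02), and among 17 snRNP assembly factors 3 rose and 5 fell (median 0.06). Among 16 SR kinases and SR-related proteins 6 rose and 2 fell (median 0.13), among 32 sequence-specific regulators 8 rose and 4 fell (median 0.12), and among 20 exon junction and export factors 8 rose and 5 fell (median 0.15). The largest change in these lists was that of ppil1, a prolyl isomerase of the spliceosome, at -2.82 ± 0.34 (adjusted p = 5.87e-08). wdr77, a partner of the methyltransferase that modifies Sm proteins, fell by 1.32 ± 0.15 (adjusted p = 2.76e-08), and rbm24, a regulator of muscle splicing, rose by 1.85 ± 0.23 (adjusted p = 1.08e-07).

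Between tissues, where 42.0% of all genes were higher and 44.0% lower in muscle, the same lists gave 6 higher and 14 lower in muscle for snRNP proteins, 3 and 8 for helicases, 5 and 12 for the Prp19 complex and catalytic steps, 9 and 4 for snRNP assembly, 10 and 4 for SR kinases and SR-related proteins, 18 and 13 for sequence-specific regulators, and 4 and 8 for exon junction and export factors. srpk3, an SR protein kinase known from mouse muscle, was higher in muscle by 8.73 ± 0.16, and rbm20, a regulator of titin splicing in mammals, by 11.82 ± 0.19 (edgeR adjusted p = 5.72e-38 and 1.59e-32). esrp2 (LOC107381887 in the files), an epithelial splicing regulator, was lower by 5.77 ± 0.18 (adjusted p = 3.01e-30).

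The 11 locus-numbered columns with matching RefSeq symbols include the counterparts that the rule missed. On fasting, srsf3a fell by 1.02 ± 0.18, srsf9 by 0.84 ± 0.08 and snrpb by 0.68 ± 0.08 (edgeR adjusted p = 1.72e-05, 1.92e-09 and 6.31e-08). srsf1b, srsf4, u2af1, srsf5b and hnrnpaba also fell, by 0.62, 0.54, 0.45, 0.35 and 0.35. lsm14aa rose by 0.25 ± 0.10 (adjusted p = 0.0293), while srsf1a and hnrnpm were at -0.13 and -0.18 (adjusted p = 0.134 and 0.135). Between tissues, lsm14aa and snrpb were higher in muscle by 1.70 ± 0.07 and 1.0 ± 0.08 (adjusted p = 1.33e-25 and 1.05e-15). Close paralogs such as srsf3 and srsf3a, or srsf5 and srsf5b, can share reads, and how the counting treated such reads is not given in the sources used here.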

How the data were processed

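Liver or muscle of single fish was sequenced, per the labels. The authors deposited whole-number read counts per gene for each library. Per the submitters' processing notes, FastQC 0.11.8, Trim Galore 0.6.4, cutadapt 3.4 and STAR 2.7.6a were used; the genome build, annotation, counting rule and use of strand are not given in the sources used here, so paralogs and overlapping or antisense genes are uncertain and no coordinates are given. CPM is not corrected for gene length, so levels are compared within a gene only.

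Counts were analysed with edgeR 4.0.16 in R 4.3.3 (limma 3.58.1): filterByExpr (minimum count 10, minimum total 15), TMM scaling, glmQLFit and glmQLFTest on 1 mean per group, Benjamini-Hochberg adjustment over all genes of a model (17406 in liver, 16380 in muscle, 18485 between tissues), calls at 0.05. SE is the log2 fold change divided by the root of the F statistic. For log2 CPM the prior count was 2. The liver model was also run on simulated counts without outlying fish. The outcome is not given here, and no call rests on it. Replicate libraries differed beyond counting noise (chi-square per degree of freedom at least 16.22 in 84 pairs). Locus-numbered columns took symbols (5241 of them) from RefSeq (NfurGRZ-RIMD1), for names only.

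The numbers in the labels pair liver and muscle, since the design text says both came from the same fish. Deviations from group means of the same fish correlated at -0.01 to 0.56 (median 0.13, above 0.1 in 23 of 27 fish). Tissues of different fish were not correlated, so these values do not test the pairing.

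Named genes are the largest called changes in each direction with an average log2 CPM of at least 1 (up to 12 in the mean fasting and tissue comparisons, up to 4 elsewhere), or the 2 with the smallest adjusted p where fewer than 3 were called; the calls of hnrnpll in old fasted fish, and the members listed by family, were named after their values were seen. The values of 1 member are not reported here, though it stays in the counts. The members, lists and tests were chosen with earlier results of these data known. Alternatives were RLE size factors, no filter, DESeq2 1.42.0, only the groups compared, the fish as a block, each library left out, and, added after seeing the data, the mean fasting response without old WT males.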

Additional observations from a re-analysis of the deposited data

Results flagged for a closer look

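In groups of 4 libraries, 144 values were examined for a fish far from its group. They were shown genes and the members' mean level in 8 groups of liver or muscle. Of these, 14, all in liver, met Dixon's criterion, which chance meets for about 1 value in 20. Every group of 4 is Het, so no WT fish was examined, nor any fasted old Het male. Values of the same fish are not independent, since its mean level is made from the members. The count of 14 was therefore not tested against the chance rate. Of the 14 values, 7 belong to fed old Het male fish 14. Its mean member level was 4.37 log2 CPM, against 3.93 to 3.96 in the other 3. It held 17.3 CPM of snrpf (5.30 to 6.18 in the others), 19.2 of lsm3 (9.38 to 10.7), 62.7 of srsf3 (42.0 to 44.5), 74.2 of srsf6 (56.4 to 58.2), 40.5 of hnrnpl (30.1 to 30.7) and 28.3 of prpf19 (14.5 to 15.8). Its dividing-cell markers stood at a mean of 4.78 log2 CPM, within the 4.43 to 4.96 of fed old WT males; their part in these values was not tested.

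Fasted old Het female fish 24 held 1.21 CPM of hnrnpll (0.386 to 0.431 in the others) and 18.8 of sf3a3 (23.9 to 24.9). Fasted young Het female fish 37 held 8.29 CPM of lsm2 (3.90 to 4.38) and 28.3 of sf3a3 (19.9 to 21.2). Fasted young Het male fish 41 held 174 CPM of sf3b1 (143 to 148) and fish 38 held 31.3 of srsf3 (24.3 to 24.7). Fed young Het male fish 55 held 15.4 CPM of prpf3 (17.3 to 17.7).

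The fasting response differed between Het and WT old males, by the test of the difference, for srsf6 (1.26), hnrnpl (1.12), srsf5 (0.94) and sf3a3 (0.80, all log2). Of all genes 1.25% were called. The count of 4 members was 0 to 17 when 1 liver was left out and 0 with no filter on low counts.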

How the results depend on the processing

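Counts of called members are given against those of the edgeR fits described above, and the cause of each change was not tested. Not every changed count is listed. For fasting in young WT, young Het and old Het males, DESeq2 gave 14, 22 and 32 in place of 10, 17 and 28. With no filter on low counts these were 8, 13 and 26. Of all genes DESeq2 called 16.3%, 16.8% and 34% there, and the fits with no filter 6.34%, 8.1% and 21.1%. DESeq2 gave 1 member in place of 0 for the difference of fasting responses between Het and WT young males, 13 in place of 4 for that between Het and WT old males, 1 in place of 0 for age in fasted WT males, 3 in place of 1 for age in fasted Het males, 4 in place of 1 for age in females, 6 in place of 1 for the mean genotype difference, 5 in place of 3 and 18 in place of 9 for genotype in fed young and old males, 1 in place of 0 for genotype in fasted old females, 2 in place of 1 for age in male muscle and 2 in place of 0 for sex in muscle. In the same order DESeq2 called 3.68%, 7.31%, 5.88%, 12.8%, 8.29%, 4.34%, 9.16%, 12.3%, 4.41%, 13.5% and 6.59% of all genes. The edgeR fits called 1.53%, 1.25%, 0.500%, 8.31%, 5.95%, 1.76%, 5.80%, 7.33%, 2.03%, 10.1% and 3.20%. With no filter on low counts there were 0 for the Het minus WT old response, 0 for genotype in fasted old males and 7 in place of 12 for sex in old fish. Of all genes 0.332%, 0.216% and 22.1% were called there. RLE size factors gave 2 for age in male muscle, with 10.1% of all genes called. With only the groups compared, fewer livers set the spread. The counts were 11 in place of 38 for fasting in old WT males and 33 in place of 14 for age in fed WT males. They were 7 in place of 3 for genotype in fed young males and 3 in place of 12 for sex in old fish. Of all genes 5.95%, 20.7%, 14.6% and 19.7% were called in these 4 fits. The counts were 0 for age in fasted Het males, females and male muscle and for genotype in fasted old males, with 5.76%, 1.92%, 1.29% and 0% of all genes.

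Leaving out each library in turn gave 40 to 46 members for the mean fasting response and 3 to 9, 8 to 18, 29 to 40 and 19 to 29 for young WT, young Het, old WT and old Het males. For the differences between responses it gave 0 throughout for old minus young WT, 0 to 2 for Het minus WT young and 0 to 17 for Het minus WT old. Age gave 4 to 9 in fed WT, 0 to 2 in fasted WT, 0 to 3 in fasted Het males and 0 to 5 in females. Genotype gave 0 to 5 for the mean, 0 to 5 in fed young, 1 to 24 in fed old and 0 in fasted old males, and 0 to 1 in fasted old females. Sex gave 15 to 25 in young and 6 to 22 in old livers and 0 to 3 in muscle, and age 0 to 4 in male muscle. Shares of all genes in these fits are not given here. The log2 change of snrpf with age in fasted WT males ranged from -0.34 (without fish 18) to 2.14.

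The mean fasting response without old WT males, chosen after seeing the data, called 12 members higher and 27 lower, 39 in all. Of all genes it called 41.7%. With the replicate block, the fish that gave both tissues, the tissue comparison called 54 members (18 higher, 36 lower) in place of 52. Of all genes it called 86.8%. Of the named log2 fold changes under all alternatives, 2603 kept direction and side of the threshold, 286 lost the call, 32 gained it and 1 reversed. Depth limits lsm14b, hnrnpll and lsm11, the members with the lowest CPM.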
